A study of Arabidopsis thaliana with 6 samples.

Results

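The FLC and MAF genes of *Arabidopsis thaliana* are a small clade of MADS-box transcription factors that hold back flowering. All 6 were taken by their gene identifiers from the 37336 genes of the deposited expression matrix: FLC (AT5G10140), MAF1 (AT1G77080, also called FLM), MAF2 (AT5G65050, AGL31), MAF3 (AT5G65060), MAF4 (AT5G65070) and MAF5 (AT5G65080). They were compared between siliques of the *eml1-2 eml3-4* double mutant (below, *eml1 eml3*; 3 libraries) and of the wild type (WT; 3 libraries). Both genotypes were self-pollinated and collected 1 to 5 days after pollination, and polyadenylated RNA was sequenced. EML1 and EML3 belong to the EML proteins, which the study's title describes as histone readers that keep seeds from developing without fertilization.

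FLC represses the florigen gene FT and the floral integrator SOC1, and it does so in complexes with the related MADS protein SVP. FRI and its partner proteins raise FLC transcription, while the autonomous pathway and Polycomb complexes, which deposit a repressive histone mark during cold, lower it. FLC is switched on again in the embryo, where the regulators LEC1, LEC2 and FUS3 take part, so each generation starts with the cold memory erased. MAF1 to MAF5 are FLC's closest relatives in this species. MAF2 prevents flowering after short cold spells, and splice forms of MAF1 and MAF2 respond to temperature. MAF2, MAF3, MAF4 and MAF5 stand next to each other in one tandem group, with no other protein-coding gene between them in the TAIR10.1 annotation.

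A silique holds fruit wall, seed coat, endosperm and embryo, so a lower value can mean fewer cells of a type or less RNA per cell, and these cannot be told apart. The labels give no accession for either genotype, so accession and genotype cannot be told apart as sources of a difference. They also do not say whether libraries came from separate plants, and p-values then measure only the spread between these libraries. Depth was 26771227 to 39246167 reads per library. EML3 (AT5G13020) stood at 190, 173 and 198 normalized read counts in the *eml1 eml3* libraries and at 2255, 2129 and 2718 in the WT libraries, while EML1 (AT3G12140) averaged 1144 in *eml1 eml3* and 1281 in WT, so the counts show the *eml3* lesion but do not check the *eml1* allele. Library 3 of *eml1 eml3* stood apart from the other mutant libraries: the summed level of 8 genes of maturing seeds was 67609 there, at most 81.0 in the other mutant libraries, and 83.4 to 282 in WT. Values without that library are given below for the MAF genes and for the list genes whose call changed. Other list genes turned sign without it while not passing, and of these only FT is described.

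In these siliques the clade was represented by MAF2, MAF1 and MAF3, with little MAF4 and MAF5 and almost no reads on FLC. MAF2 was the only member that passed the test between genotypes, and it was 0.711-fold of WT in *eml1 eml3*. MAF4, MAF5, MAF3 and MAF1 also had lower means in the mutant without passing. Of the 6 members, 5 had a mean normalized read count of at least 10 over the 6 libraries and were tested. FLC was below that minimum.

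MAF2 had 1169, 1012 and 1193 normalized read counts in *eml1 eml3* libraries 1, 2 and 3, against 1737, 1528 and 1483 in WT libraries 1, 2 and 3. All 3 mutant values lay below all 3 WT values, with no overlap. The means were 1125 ± 98.6 in *eml1 eml3* and 1583 ± 136 in WT (SD, n = 3 each). The log2 change was -0.49 ± 0.13 (SE; 95% interval -0.78 to -0.21; limma adjusted p = 0.047). That p lies close to the threshold of 0.05, and the call depended on the libraries: the adjusted p was 0.129 and 0.200 without mutant library 1 or 2, 0.125, 0.130 and 0.0772 without WT library 1, 2 or 3, and 0.0286 without mutant library 3. The authors' deposited table gave a log2 fold change of -0.49 with an adjusted p of 0.0202 for MAF2. On recovered reads its adjusted p was 0.0489 in edgeR's quasi-likelihood test with a filter, 0.0363 without one, and 0.0193 in DESeq2.

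MAF4 had the largest log2 change of the tested members, on few reads. It stood at 19.5, 16.2 and 3.78 normalized read counts in the *eml1 eml3* libraries, which rest on 24, 16 and 3 reads, and at 72.1, 34.3 and 46.2 in the WT libraries, which rest on 86, 35 and 41 reads. The groups did not overlap, and mutant library 3 held the lowest value of all. The log2 change was -2.06 ± 0.70 (SE; 95% interval -3.61 to -0.51), which did not pass after adjustment over all genes (limma adjusted p = 0.112). Without mutant library 3 it was -1.40, and the adjusted p was 0.121. The authors' deposited table gave -1.93 with an adjusted p of 0.065.

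MAF5, the last gene of the tandem group, stood at 24.3, 32.4 and 30.2 in the *eml1 eml3* libraries and at 65.4, 41.1 and 38.3 in the WT libraries. These ranges did not overlap either, but WT library 1 stood well above the other WT libraries, and the log2 change of -0.69 ± 0.47 (SE) did not pass (limma adjusted p = 0.442). MAF3 had 270, 315 and 355 in *eml1 eml3* and 428, 347 and 401 in WT. Its ranges overlapped, since mutant library 3 was above WT library 2, and its log2 change was -0.32 ± 0.19 (SE; limma adjusted p = 0.364).

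MAF1, which lies on another chromosome than the tandem group, had 795, 790 and 649 normalized read counts in the *eml1 eml3* libraries, against 885, 769 and 814 in the WT libraries. The groups overlapped, and the log2 change was -0.15 ± 0.15 (SE; 95% interval -0.47 to 0.17; limma adjusted p = 0.614). That interval leaves room for a mutant level between 0.723-fold and 1.13-fold of WT. Gene-level values hold all splice forms together, so they do not show whether the temperature-responsive forms of MAF1 or MAF2 shifted against each other.

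**Figure D1:**
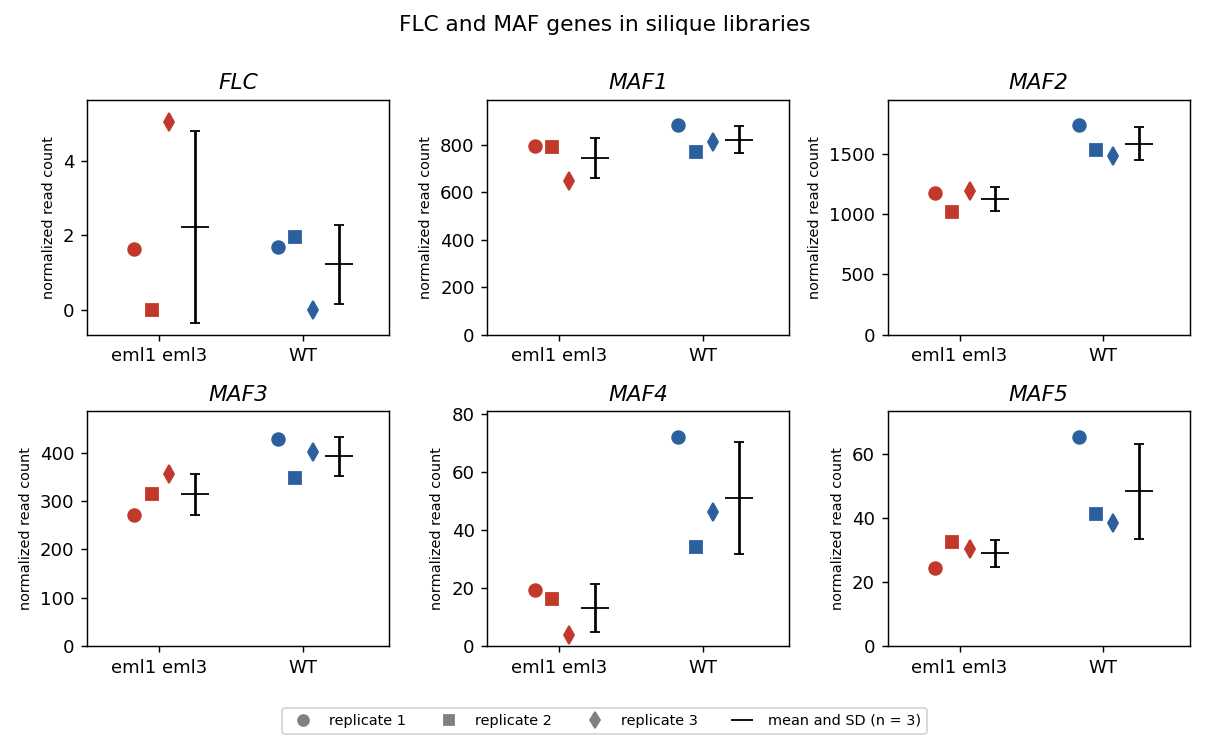
Normalized read counts of the 6 clade members (y axis, a separate linear scale for each gene) in the *eml1 eml3* and WT libraries; each marker is 1 library, with the mean and SD of 3 libraries beside it. MAF2, MAF4 and MAF5 do not overlap between genotypes, MAF1 and MAF3 do, and FLC lies between 0 and 5.04 in every library.

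Of the 5 tested members 1 passed the test, 0 higher and 1 lower, where 6.79% of all 21751 tested genes passed in either direction and 3.1% passed lower in the mutant. MAF2 was also the 1 tested member that passed lower in the tests named next, in which the share of all genes passing lower was 2.95% in edgeR with a filter, 3.33% without one, 4.8% in DESeq2, 4.52% in the authors' deposited table, and 6.73% in limma without mutant library 3. The 3 members whose mutant libraries all lay below all WT libraries compare with 12.8% of tested genes that show this. The median log2 change of the 5 tested members was -0.49, beside 0.00 over all tested genes, and all 5 were below 0, as were 49.7% of tested genes. MAF2 to MAF5 are neighbours with related sequences, and MAF2 and MAF3 transcripts match at 89.8% identity over 1017 bases. No MAF member has a copy with at least 95% identity over 150 bases or more. The members were tested one by one, and no test was made of the clade as a set.

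Whether members changed by different amounts was tested on the log2 ratio of each pair within a library, over 10 pairs. The log2 ratio of MAF2 over MAF4 was 6.56 ± 1.22 in *eml1 eml3* and 4.99 ± 0.43 in WT (SD, n = 3 each; two-sided exact permutation p = 0.1, adjusted p = 0.2). With 3 against 3 libraries 0.1 is the smallest p this test allows, so no pair could pass. The log2 ratio of MAF1 over MAF2 was -0.60 ± 0.26 in *eml1 eml3* and -0.94 ± 0.07 in WT (two-sided exact permutation p = 0.2, adjusted p = 0.286). The pairs MAF1 over MAF4, MAF3 over MAF4, MAF4 over MAF5 and MAF1 over MAF5 also reached the two-sided exact permutation p of 0.1. Their log2 ratios differed between genotypes by 1.91, 1.73, -1.37 and 0.54, and MAF4 and MAF5 rest on few reads. As no pair could pass, this test cannot decide whether members changed by different amounts or alike.

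FLC itself was at the edge of detection in both genotypes. It had 2, 0 and 4 reads in the *eml1 eml3* libraries, or 1.62, 0 and 5.04 normalized read counts, and 2, 2 and 0 reads in the WT libraries, or 1.68, 1.96 and 0. The groups overlapped. The mutant-to-WT ratio of the 6 and 4 summed reads was 1.49 with a 95% exact binomial counting interval of 0.353 to 7.16, which covers counting error only. Tested without the minimum, FLC had an adjusted p of 0.862 in limma and 0.888 in edgeR's quasi-likelihood test. At this depth a difference of several-fold would not have been detectable.

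The FLC value may also be limited by how reads were assigned to genes. In the TAIR10.1 annotation 804 of the 1180 exonic bases of FLC, or 68.1%, are also exonic in the antisense gene AT5G01675, a noncoding transcript annotated as antisense to FLC. That antisense gene had 0 in every *eml1 eml3* library and 2.52, 2.94 and 1.13 normalized read counts in the WT libraries. The other 376 exonic bases of FLC are not shared. Over all exons FLC had at most 4 reads in a library. Over the whole matrix, protein-coding genes with more than 50% of their exonic bases covered by another gene had low levels. Of 487 protein-coding genes with more than 95% of their exonic bases covered, 95.5% were at 0 in all 6 libraries, against 8.13% of 19821 genes with none covered. Of the 350 genes with more than 50% and up to 75% covered, the class that holds FLC, 55.1% had a mean under 10, against 24.8% of genes with none covered, and their median value was 5.37 against 212. Genes with up to 50% covered did not have low levels, with a median of 447, and 11.4% of these 6512 genes had a mean under 10. The strand setting of the counting is not given in the sources used here. Why overlapped genes had low levels was not tested, and neither was the part of the overlap in the FLC value. The near-zero counts cannot be read as an absence of FLC transcription. The exons of MAF1 to MAF5 have no such overlap, 0 bases in each.

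To compare the members with each other, normalized read counts were divided by transcript length. On the longest annotated transcript MAF2 had the highest level in every library, at 357 ± 31.3 per kilobase in *eml1 eml3* and 503 ± 43.2 in WT (SD, n = 3 each). It made up 45.1 ± 2.97% of the clade's summed level in *eml1 eml3* and 47.7 ± 1.81% in WT. MAF3 followed at 214 ± 29.1 per kilobase in *eml1 eml3* and 268 ± 28.2 in WT, and MAF1 at 182 ± 20.2 in *eml1 eml3* and 201 ± 14.2 in WT. MAF3 and MAF1 did not differ beyond their spread in *eml1 eml3*, where MAF1 was the higher of the 2 in library 1.

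MAF5 and MAF4 came far below, at 25.7 ± 3.69 and 10.5 ± 6.63 per kilobase in *eml1 eml3*, and at 42.7 ± 13.2 and 40.7 ± 15.5 per kilobase in WT, where they did not differ beyond their spread. MAF4 contributed 1.34 ± 0.855% of the clade's level in *eml1 eml3* and 3.79 ± 1.05% in WT. FLC, with the possible limit given above, was at 2.13 ± 2.47 per kilobase in *eml1 eml3* and 1.16 ± 1.02 in WT. The summed level of the clade was 789, 771 and 815 per kilobase in *eml1 eml3* libraries 1, 2 and 3, and 1177, 976 and 1015 in WT libraries 1, 2 and 3, with MAF2 making the largest part of the gap. The position of MAF1 depended on the length used, because its longest annotated transcript has 4099 bases and the median of its transcripts 1095. With median lengths MAF1 was above MAF3 in 6 libraries, and with the longest in 1.

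**Figure D2:**
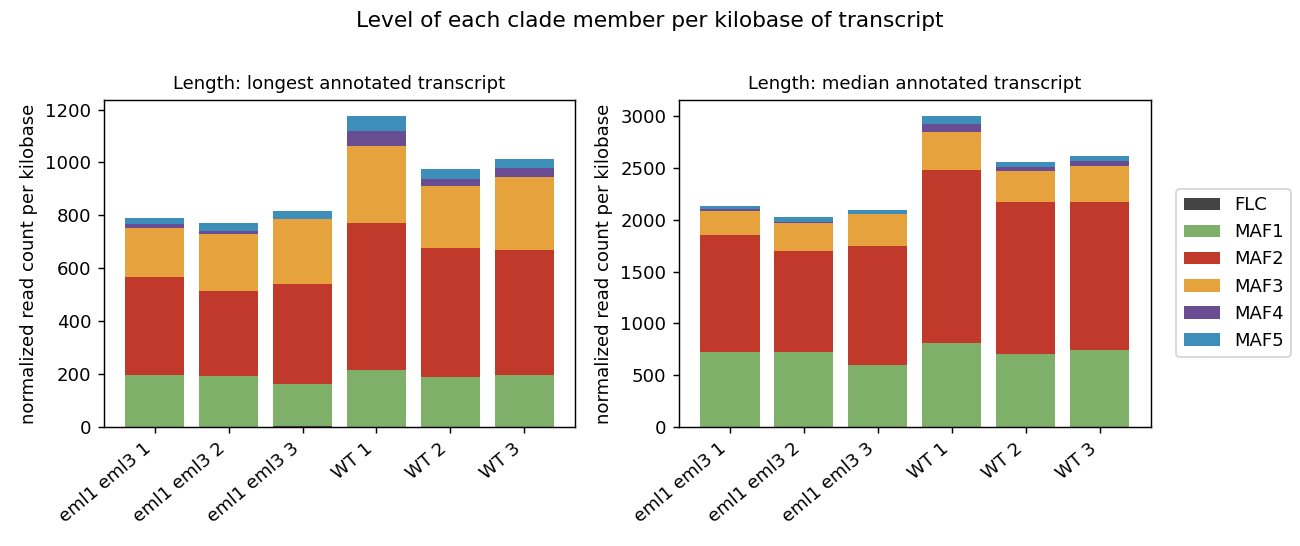
Normalized read count per kilobase of transcript (y axis) for each clade member, stacked by library, with the longest (left) and the median (right) annotated transcript as the length. MAF2 is the largest block in every library, and the 3 *eml1 eml3* stacks are lower than the 3 WT stacks on both lengths. The MAF1 and MAF2 blocks grow most on the median length.

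None of the tested genes next to the clade passed. The 3 nearest protein-coding genes on each side of the tandem group included 5 that could be tested, with log2 changes from -0.63 to 0.52 and a lowest limma adjusted p of 0.281, at ACX2 (AT5G65110), an acyl-CoA oxidase gene. Of these 5 neighbours 0 passed, where 6.79% of all tested genes passed, and 0 had an unadjusted p under 0.05, where 21.5% of all tested genes did. AT5G65040, directly before MAF2, stood at 39.8, 70.9 and 159 in the *eml1 eml3* libraries and at 165, 136 and 74.4 in WT, and BST1 (AT5G65090), directly after MAF5 and known for root hair growth, at 29.2, 62.8 and 78.1 in *eml1 eml3* and at 11.7, 72.5 and 56.4 in WT. Of the other neighbours ANNAT2, AT5G65030 and AT5G65100 also belong to this group. Around FLC 4 of the 6 genes AT5G10110, AT5G10120, AT5G10130, AT5G10150, AT5G10160 and MIPS3 could be tested, with log2 changes from -0.18 to 0.23, and around MAF1 5 of the 6 genes AT1G77020, AT1G77030, AT1G77060, AT1G77090, AT1G77093 and AT1G77100, with log2 changes from -0.01 to 0.22. None of these 9 passed or had an unadjusted p under 0.05. With the shares over all tested genes given above, no call among so few genes is not a result about the surroundings. Differences between the members and their neighbours were not tested.

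Among the genes known to activate FLC, FRI and FRL1 rose in the mutant. FRI (AT4G00650), the scaffold protein of the activating complex, had 229, 200 and 189 normalized read counts in the *eml1 eml3* libraries and 22.6, 10.8 and 25.9 in the WT libraries. The groups were far apart, with means of 206 ± 20.6 in *eml1 eml3* and 19.8 ± 7.97 in WT (SD, n = 3 each), 10.4-fold higher in *eml1 eml3*. The log2 change was 3.40 ± 0.42 (SE; limma adjusted p = 0.00108), and FRI passed under all 20 alternatives tried. In the annotation 10.0% of its exonic bases are shared with antisense genes. FRL1 (AT5G16320), a FRI-like gene needed for FRI function, had 292, 287 and 294 in *eml1 eml3* and 140, 121 and 112 in WT, higher by 1.22 ± 0.22 on the log2 scale (SE; limma adjusted p = 0.00958), and it did not pass without mutant library 1 or 2 (adjusted p = 0.0554 and 0.0549).

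Of the 25 genes in the list of FRI complex and chromatin activators all were tested, and besides FRI and FRL1 none passed, so 2 rose and 0 fell, with a median log2 change of 0.03. That is 2 of 25 genes, near the 6.79% of all tested genes that passed. The H3K36 methyltransferase gene SDG8 (AT1G77300), which the FLC and MAF genes need for high expression, averaged 1802 ± 130 in *eml1 eml3* and 1661 ± 411 in WT (SD, n = 3 each; limma adjusted p = 0.692). Without mutant library 3 the ubiquitin-conjugating enzyme gene UBC2 (AT2G02760), which acts in histone H2B ubiquitination, passed as lower, with a log2 change of -0.59 (limma adjusted p = 0.00687). FRI transcripts were 10.4-fold higher in the same libraries in which FLC had 6 reads, against 4 reads in WT. The FLC counts have the possible overlap limit given above, and the accessions are not known. Nothing about the action of FRI on FLC is therefore read from these values, and it was not tested.

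Of 16 autonomous pathway genes, which keep FLC low, 0 passed in limma, and 2 had an unadjusted p under 0.05, as did 21.5% of all tested genes. Those 2 were CSTF77 (AT1G17760), an RNA 3′-end processing factor, at 933 ± 37.0 in *eml1 eml3* and 691 ± 74.0 in WT (SD, n = 3 each; limma adjusted p = 0.0909), and the kinase gene CDKC2 (AT5G64960), at 2118 ± 89.0 in *eml1 eml3* and 1668 ± 320 in WT (limma adjusted p = 0.190), whose exonic bases are shared with an antisense gene for 38.9%. The count stayed at 0 in edgeR and in DESeq2. Of 12 Polycomb and vernalization genes 1 fell, where 3.1% of all tested genes fell. VAL1 (AT2G30470), a B3 domain protein that brings Polycomb silencing to FLC, had 864, 1049 and 1011 in *eml1 eml3* against 1310, 1336 and 1540 in WT, without overlap, and its log2 difference was -0.52 ± 0.13 (SE; adjusted p = 0.0462 in limma). Like MAF2 it passed without mutant library 3 (adjusted p = 0.0346) and did not pass without any other single library, where the adjusted p ranged from 0.0741 to 0.194. The median log2 changes of the autonomous and Polycomb lists were 0.10 and -0.07, beside 0.00 over all tested genes.

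**Figure D3:**
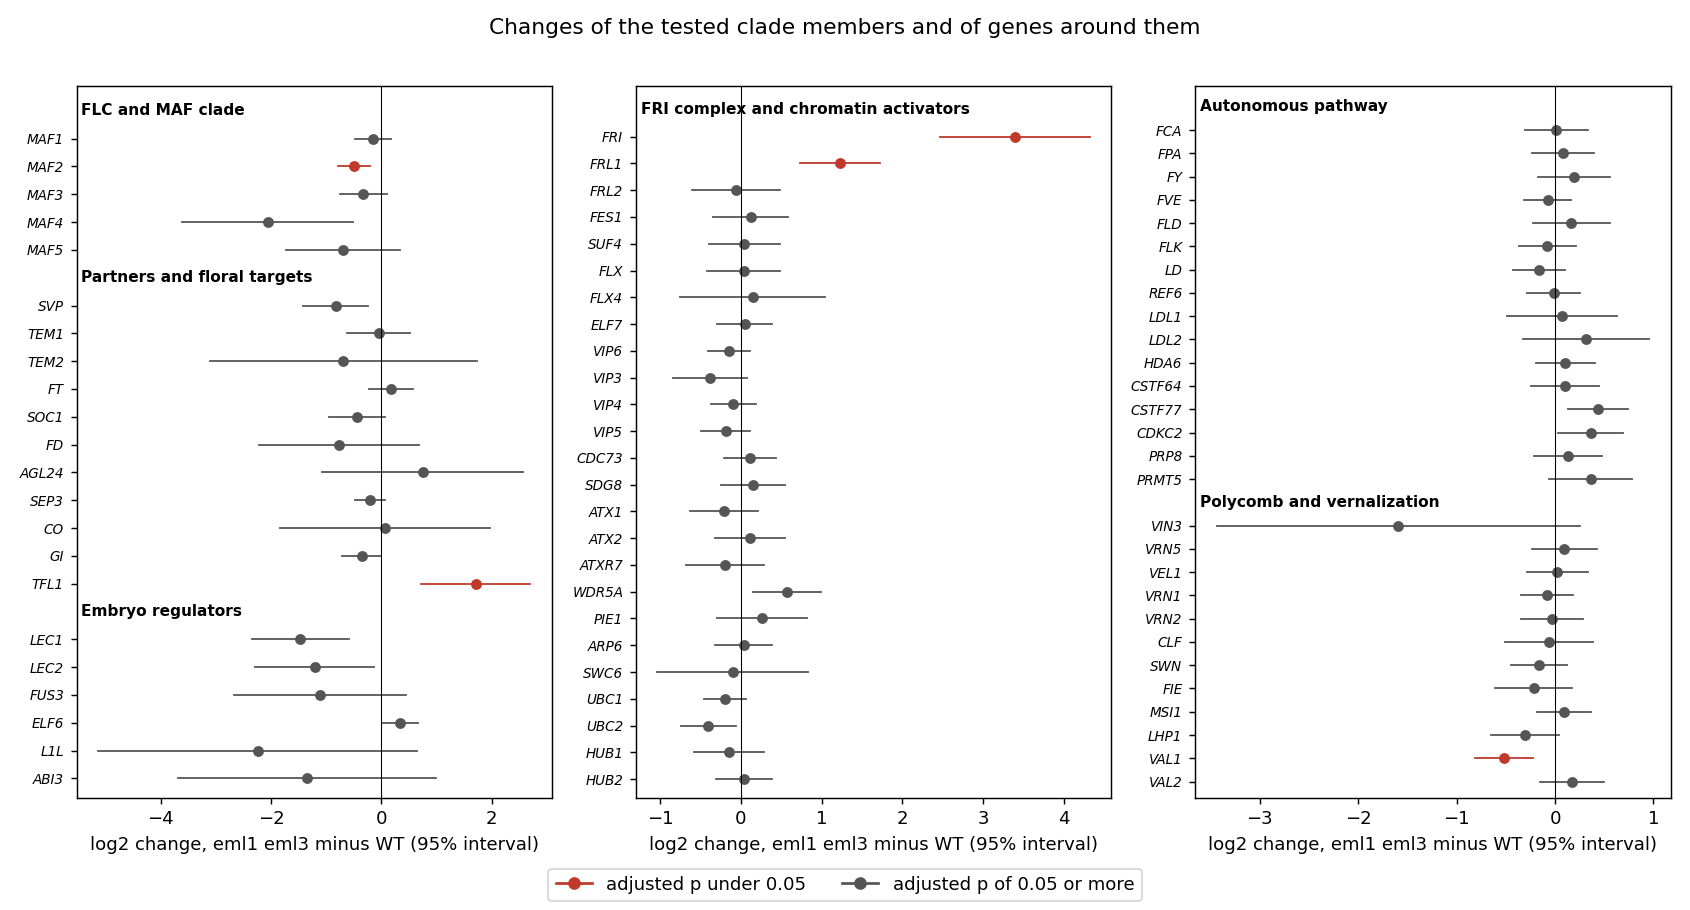
Log2 change, *eml1 eml3* minus WT, with its 95% interval from limma (x axis, a separate scale in each panel) for the tested clade members and for the tested genes of the pathway lists. Red marks adjusted p under 0.05: MAF2 and VAL1 lie below 0, and FRI, FRL1 and TFL1 above 0.

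The partner and the targets of the clade gave 1 call. SVP (AT2G22540), the MADS partner of FLC and MAF proteins, stood at 141, 192 and 113 normalized read counts in the *eml1 eml3* libraries and at 312, 237 and 236 in the WT libraries. The groups did not overlap, but the log2 change of -0.83 ± 0.27 (SE) did not pass (limma adjusted p = 0.0939). FT (AT1G65480), which encodes the mobile florigen, was abundant at 5453, 5319 and 8774 in *eml1 eml3* and at 5967, 5707 and 5180 in WT. Its groups overlapped, with the highest value in mutant library 3, and its log2 change was 0.18 ± 0.18 (SE; 95% interval -0.22 to 0.57; limma adjusted p = 0.624). Without mutant library 3 the FT log2 change was -0.06 (limma adjusted p = 0.787), so its sign turned with that library.

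SOC1 (AT2G45660), a MADS gene that promotes flowering, had 310, 410 and 234 in *eml1 eml3* and 427, 465 and 373 in WT, with a log2 change of -0.44 (limma adjusted p = 0.302) and of -0.24 without mutant library 3. FD (AT4G35900), the bZIP partner of FT, was low, at 19.5, 19.2 and 7.56 in *eml1 eml3* and 21.0, 21.6 and 33.8 in WT, with a log2 change of -0.76 (limma adjusted p = 0.555) and of -0.34 without mutant library 3. The member of the list that passed was TFL1 (AT5G03840), which opposes FT and keeps shoot meristems from turning into flowers, at 61.7, 115 and 106 in *eml1 eml3* against 38.6, 25.5 and 20.3 in WT. TFL1 rose by 1.71 ± 0.45 on the log2 scale (SE; limma adjusted p = 0.0485), but it did not pass under 14 of 20 alternatives, among them leaving out any one library (adjusted p from 0.0656 to 0.215). The authors' deposited table gave TFL1 a log2 fold change of 1.74 with an adjusted p of 0.00893. Of the 15 genes 11 were tested, 1 rose and 0 fell, where 6.79% of all tested genes passed, and their median log2 change was -0.20. Without mutant library 3 the call was another gene in the other direction: TFL1 did not pass (adjusted p = 0.0656), and GI (AT1G22770), a circadian clock gene that promotes FT, fell by 0.53 on the log2 scale (limma adjusted p = 0.0229). With all libraries GI had 2225, 2316 and 3285 in *eml1 eml3* and 2881, 3349 and 3658 in WT, which overlap (limma adjusted p = 0.238).

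TSF (AT4G20370), the closest homologue of FT, was below the minimum for testing. It had 30, 10 and 5 reads in the *eml1 eml3* libraries and 0, 2 and 0 in the WT libraries. The ratio of the summed reads was 22.3, with a 95% counting interval of 5.83 to 190. That interval covers counting error only, not the spread between libraries. Without the minimum the adjusted p of TSF was 0.0549 in limma, 0.153 in edgeR and 0.0806 in DESeq2. LFY (AT5G61850), the regulator of floral meristem identity, had 2, 0 and 0 reads in *eml1 eml3* and 2, 12 and 12 in WT (adjusted p = 0.140 in limma without the minimum). SPL3 and SPL15 had 1 and 0 reads in all, and 97.3% and 100% of their exonic bases are shared with an antisense gene, so nothing is read from them.

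**Figure D4:**
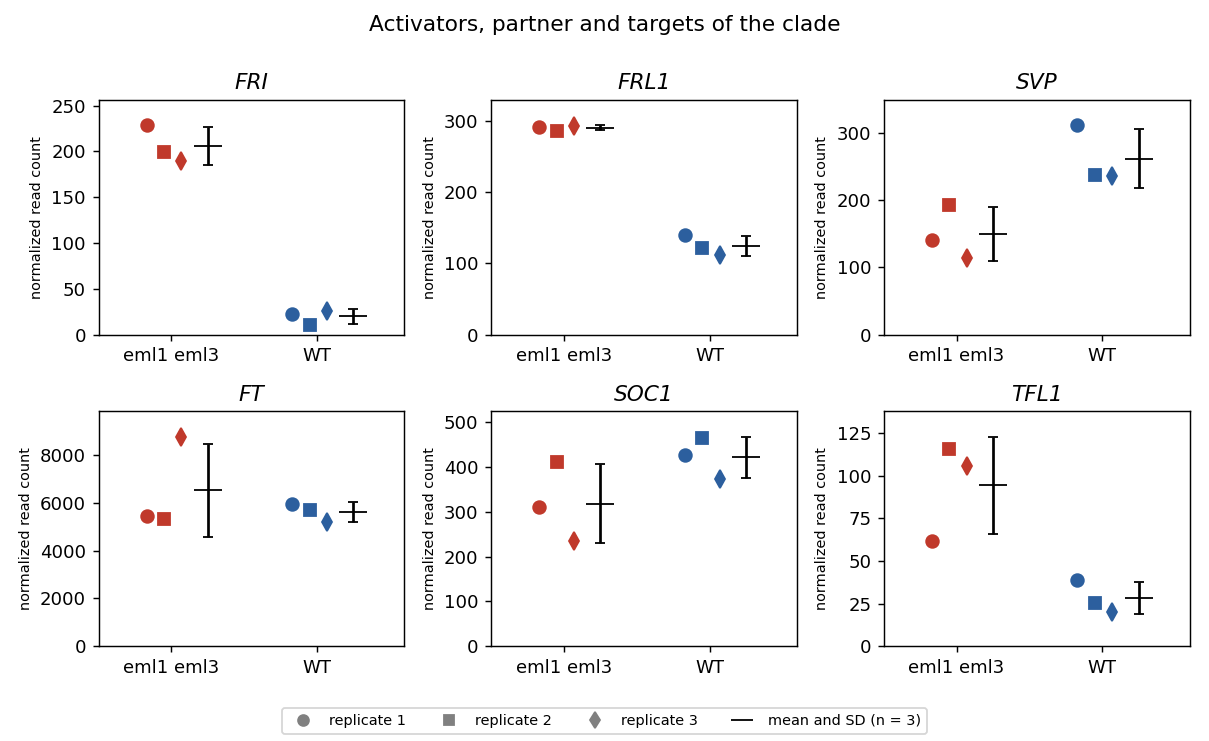
Normalized read counts (y axis, a separate linear scale for each gene) of the FLC activators FRI and FRL1, the partner SVP, the targets FT and SOC1, and TFL1, in the *eml1 eml3* and WT libraries; each marker is 1 library, with the mean and SD of 3 libraries beside it. FRI, FRL1 and TFL1 are higher and SVP is lower in every mutant library, while FT and SOC1 overlap between genotypes.

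Among the embryo regulators known to act on FLC or in the same network, the number of calls depended on mutant library 3. LEC1 (AT1G21970), which switches FLC on in the early embryo, stood at 113, 148 and 421 in the *eml1 eml3* libraries and at 572, 509 and 515 in the WT libraries. The groups did not overlap, and the log2 change of -1.47 ± 0.40 (SE) did not pass (limma adjusted p = 0.0551), whereas without mutant library 3 LEC1 fell by 2.03 on the log2 scale (limma adjusted p = 0.00021). The authors' deposited table gave LEC1 a log2 fold change of -1.24 with an adjusted p of 0.0111. LEC2 (AT1G28300) was at 33.3, 18.2 and 42.8 in *eml1 eml3* and 99.8, 50.0 and 67.6 in WT (limma adjusted p = 0.180), and FUS3 (AT3G26790) at 26.0, 36.5 and 199 in *eml1 eml3* and 151, 203 and 64.3 in WT (limma adjusted p = 0.403). Of the 6 genes in the list 0 passed with all libraries and 3 had an unadjusted p under 0.05, as did 21.5% of all tested genes. Those 3 were LEC1, LEC2 and ELF6 (AT5G04240), and ELF6 went the other way. ELF6 stood at 1011, 1154 and 1189 in *eml1 eml3* and at 755, 952 and 954 in WT, with a log2 change of 0.34 (limma adjusted p = 0.207). Without mutant library 3 the 4 genes LEC1, FUS3, L1L and ABI3 passed, all lower, where 6.73% of all genes tested in that fit passed lower. The log2 change was then -1.99 for FUS3, -4.04 for L1L and -2.97 for ABI3 (limma adjusted p = 0.0273, 0.00819 and 0.00108). LEC2 at -1.46 and ELF6 at 0.29 did not pass in that fit (limma adjusted p = 0.0843 and 0.273).

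The members did not follow library 3 in one way. Without it the log2 change of MAF2 was -0.54, of MAF3 -0.42, of MAF5 -0.72, of MAF4 -1.40 and of MAF1 -0.05. MAF4 and MAF1 were lowest in that library, and MAF2 and MAF3 were at their mutant maximum there. The 5 embryo markers summed to 213, 226 and 1627 in *eml1 eml3* libraries 1, 2 and 3, and to 853 to 1169 in WT. Mutant libraries 1 and 2 were thus below every WT library, and mutant library 3 was above them. All 5 are also genes of the embryo list above. The summed level of the 3 flower organ markers ran from 2415 to 2691 in *eml1 eml3* and from 3728 to 5080 in WT. That of the 2 pollen markers ran from 2046 to 3458 in *eml1 eml3* and from 3936 to 10583 in WT. The flower organ and pollen sums were thus lower in every mutant library, as MAF2, MAF4 and MAF5 were, and their part in the MAF values was not tested. The 4 seed coat markers summed to 16513 to 17160 in *eml1 eml3* and 15545 to 20389 in WT, the 8 endosperm markers to 1057 to 1213 in *eml1 eml3* and 1032 to 1362 in WT, and the 5 fruit wall markers to 5593 to 6056 in *eml1 eml3* and 5988 to 6716 in WT. The sums hide single genes that passed as lower, as 3.1% of all tested genes did. These were the fruit wall marker SHP1, the flower organ marker AP3 and the pollen marker PPME1, with log2 changes of -0.53, -0.85 and -1.81 (limma adjusted p = 0.0273, 0.0075 and 0.0276). The fruit wall marker FUL was higher in every mutant library without passing (log2 change 0.32, limma adjusted p = 0.147). No marker of any list was at 0 in all libraries of a genotype.

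The tested genes with a 6-library profile nearest to MAF2 were PYD2 (AT5G12200), a pyrimidine catabolism enzyme, SHP1 (AT3G58780), a MADS gene of the fruit valve margin, and TAP38 (AT4G27800), a thylakoid phosphatase. Their root mean square differences from MAF2, on log2 values centred on each gene's mean over 6 libraries, were 0.0586, 0.0625 and 0.0703. MAF2 was profiled because it passed, so genes chosen for a like profile are lower in the mutant by that choice. Their log2 changes of -0.53, -0.53 and -0.42 are therefore not a separate result. SHP1 is the fruit wall marker given above. For FLC the nearest were NAC044 (AT3G01600), CIPK22 (AT2G38490) and TBL31 (AT1G73140), at 0.313, 0.358 and 0.373, and with at most 4 FLC reads in a library that profile is mostly counting noise.

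**Figure D5:**
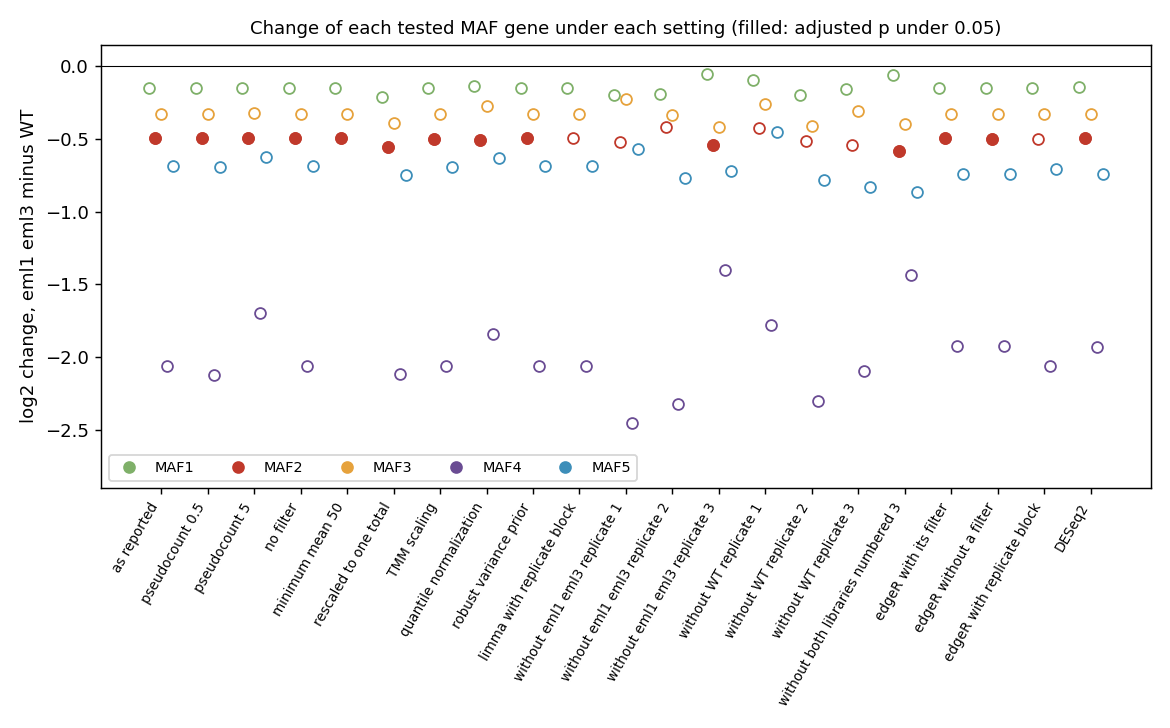
Log2 change, *eml1 eml3* minus WT (y axis), of MAF1 to MAF5 with the settings of the reported fit and under each alternative (x axis); a filled marker has an adjusted p under 0.05. Every value lies below 0, and the filled markers are all MAF2.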

How the data were processed

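The deposited matrix holds a signal that the authors made as gene read counts divided by 1 size factor per library, per the file headers. The submitters' processing notes list, without roles, DESeq2, STAR 2.5.2a, Trim Galore, featureCounts, SAMtools and Subread. As neither build, annotation nor strand setting is stated in the sources at hand, no coordinates or sequences are printed. The authors' own comparison, with log2 fold changes, p-values and a test score, was deposited separately, per the file headers.

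Values were whole multiples of 1 step per library (100% within 1e-06), so whole reads were recovered. Genes with a mean of at least 10 were tested, 21751 of 37336, with limma 3.58.1 (R 4.3.3) and a variance trend on log2(value + 1), genotype as the only term, two-sided, Benjamini-Hochberg adjustment and a threshold of 0.05. That scale understates the change of low genes. Among genes with 1 to 20 reads even counts made up 69.3% to 73.9%, so reads may come in mate pairs, and counting intervals are then too narrow. Lengths, overlaps and neighbours came from the TAIR10.1 annotation, which holds 37051 of the gene IDs, and identities from BLAST 2.17.0. Ratios of members were tested by exact permutation in SciPy 1.17.1. Named genes were the 6 members, the neighbours, EML1 and EML3, the genes FT, SOC1, TSF, FD and SVP, each list's genes past the threshold or the 2 with the smallest p, and the 3 nearest profiles. LFY, SPL3, SPL15, SDG8, UBC2, FUS3, L1L, ABI3, ELF6, GI, FUL, AP3, PPME1 and AT5G01675 were named after their values were seen. The members and lists were chosen with earlier results of these data known. The alternatives were other pseudocounts, filters and scalings, a robust prior, a replicate block, leaving out libraries, and edgeR 4.0.16 or DESeq2 1.42.0 on recovered reads.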

Additional observations from a re-analysis of the deposited data

How the results depend on the processing

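MAF1 to MAF5 kept log2 changes below 0 under every alternative that gave a value, from -0.58 to -0.42 for MAF2 and from -2.45 to -1.40 for MAF4. A minimum mean of 50 left MAF4 and MAF5 untested, and FLC gave no value in the reported fit. MAF2 passed under 13 of 20 alternatives. Numbered libraries did not deviate together (correlations of -0.08, -0.00 and -0.17). Their depths did match by number, in *eml1 eml3* and WT in turn. Depth was 39246167 and 38196040 reads in libraries 1, 31569842 and 31503946 in libraries 2, and 26771227 and 27046107 in libraries 3. Whether the numbers pair the libraries is thus not known. With the replicate block MAF2 had a log2 change of -0.49 in limma (adjusted p = 0.0591) and -0.50 in edgeR (adjusted p = 0.0658). With the block 0 clade members, 0 Polycomb genes and 0 partner and target genes passed in either tool. Leaving out 1 library, MAF2 ranged from -0.54 to -0.42, with an adjusted p of 0.0286 to 0.200.

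Without any one library the clade count was 0 to 1, the activator count 1 to 3, the Polycomb count 0 to 1, the partner and target count 0 to 1 (the 1 without mutant library 3 is GI, lower, in place of TFL1, higher), the embryo count 0 to 4 and the count over all genes 571 to 2613. Without both libraries numbered 3 the counts were 2991 over all genes, 1 in the autonomous list, 0 in the Polycomb list and 4 in the embryo list. DESeq2 called 2397 genes, 1 of them in the embryo list, as edgeR without a filter and rescaling to one total also did. The partner and target count was 0 with a pseudocount of 0.5, without a filter, with a minimum mean of 50, rescaled to one total and in edgeR with its filter. With median transcript lengths MAF1 was above MAF3 in 6 libraries, not 1. The causes were not tested. Low read numbers limit FLC, MAF4 and MAF5.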
